A study of Mus musculus with 2 samples.

Results

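A set of 10 genes known for their roles in germ cells was compared between mouse embryonic stem (ES) cells without Id1 (KO) and wild-type (WT) ES cells. They were Dazl, Stk31, Taf7l, Mael, Ddx4, Slc25a31, Tex101, Sycp3, Tdrd1 and Prdm1. All probe sets that the platform annotation assigned to exactly 1 of these symbols were taken, which gave 10 probe sets for 8 of the 10 genes, out of 12393 genes with such a probe set in all. Mael and Slc25a31 had no probe set in the annotation used here and are described only by their promoters. The genes were chosen by their germ cell role with the intensities and KO against WT differences of these same arrays in view, so their values are a description and support nothing by themselves.

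The Id1 KO group was 1 array of RNA from ES cells lacking Id1, and the WT group was 1 array from wild-type ES cells. Both cultures were grown on gelatin in self-renewing conditions, that is with serum and the cytokine LIF, which blocks differentiation of mouse ES cells. Id1 encodes a helix-loop-helix protein that binds bHLH factors and keeps them from DNA. The labels do not name the allele, the clone or the strain of either line. With 1 array for each genotype, genotype, clone, culture and array cannot be told apart, no test was possible, and no value below has a replicate error.

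Germline genes are largely silent in somatic cells, where many of their CpG-rich promoters carry DNA methylation. In mouse ES cells a non-canonical Polycomb complex, PRC1.6, also holds many of them down. Its subunits MGA and MAX bind the E-box CACGTG, and its subunit E2F6 binds E2F sites with the core TCCCGC. Within germ cells, PRDM1 acts at the specification of primordial germ cells, and DAZL and DDX4 are RNA-binding proteins of the later germ line. The Tudor protein TDRD1 and the protein MAEL work in the piRNA pathway that silences transposons, while SYCP3 builds the axis of meiotic chromosomes.

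Promoters are shown first because their sequences do not depend on the arrays. The genes and motifs were, however, chosen with earlier results of these data known. The motifs searched, CACGTG and TCCCGC, were taken because PRC1.6 is known to use them at germline promoters. RefSeq promoter windows of build GRCm38.p6 were found for all 10 genes (13 windows). Each was 300 bases long and ran from 250 bases before to 50 after an annotated start. CACGTG lay in the window of 7 of the 10 genes, namely Stk31, Taf7l, Mael, Ddx4, Slc25a31, Sycp3 and Tdrd1. Counted by gene, the same motif lay in 8.09% of all 27025 genes. By window, it lay in 7.15% of all 32851 windows and in 11.3% of the 11765 windows with a CpG observed over expected ratio of at least 0.6. TCCCGC, searched on both strands, lay in 4 of the 10 genes (Mael, Ddx4, Slc25a31 and Sycp3), each of which also held CACGTG. Counted by gene, the E2F-type motif lay in 22% of all genes. By window, it lay in 20% of all windows and in 43.1% of the windows with a CpG ratio of at least 0.6, the latter close to the share among the germline genes. Windows with both motifs made up 1.99% of the total. The 2 motifs can share no more than 1 letter, and these matches are a description of letters, not of binding. The 250 bases before the start are printed below for the 3 genes that read at least 2-fold lower in the knockout, followed by 2 that did not. They run 5′ to 3′ on the strand of the gene, with CACGTG and TCCCGC (or its complement GCGGGA) in capitals. The stretches are chr17:50293621-50293870 on the minus strand for Dazl, chr6:49395289-49395538 on the plus strand for the first of 2 annotated starts of Stk31, chrX:134476491-134476740 on the minus strand for Taf7l, chr13:112652311-112652560 on the minus strand for Ddx4 and chr10:88459337-88459586 on the plus strand for Sycp3.
Dazl: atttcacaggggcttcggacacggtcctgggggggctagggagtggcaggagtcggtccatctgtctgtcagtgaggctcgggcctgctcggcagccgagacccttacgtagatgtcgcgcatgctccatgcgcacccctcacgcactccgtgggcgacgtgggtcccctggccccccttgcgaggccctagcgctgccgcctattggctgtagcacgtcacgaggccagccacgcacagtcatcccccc
Stk31: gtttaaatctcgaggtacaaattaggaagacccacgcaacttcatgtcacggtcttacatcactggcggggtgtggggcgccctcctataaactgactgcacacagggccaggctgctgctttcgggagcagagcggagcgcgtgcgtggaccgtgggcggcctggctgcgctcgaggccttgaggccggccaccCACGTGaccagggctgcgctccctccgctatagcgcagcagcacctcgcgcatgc
Taf7l: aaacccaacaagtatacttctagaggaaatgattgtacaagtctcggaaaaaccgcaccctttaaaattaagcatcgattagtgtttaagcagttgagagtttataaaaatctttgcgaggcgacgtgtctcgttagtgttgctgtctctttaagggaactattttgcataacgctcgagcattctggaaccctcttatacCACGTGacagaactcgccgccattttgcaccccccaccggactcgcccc
Ddx4: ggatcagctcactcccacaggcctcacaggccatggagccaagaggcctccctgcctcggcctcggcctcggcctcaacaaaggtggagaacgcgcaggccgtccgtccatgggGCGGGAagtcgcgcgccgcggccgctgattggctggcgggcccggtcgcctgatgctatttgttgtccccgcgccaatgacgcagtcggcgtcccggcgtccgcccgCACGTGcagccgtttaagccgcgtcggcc
Sycp3: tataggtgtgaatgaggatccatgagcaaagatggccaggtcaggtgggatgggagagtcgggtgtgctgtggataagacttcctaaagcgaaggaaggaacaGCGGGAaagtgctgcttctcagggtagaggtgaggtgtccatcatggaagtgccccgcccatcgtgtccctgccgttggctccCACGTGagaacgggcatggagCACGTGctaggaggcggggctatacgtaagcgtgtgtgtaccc

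In these stretches the E-box began 55 bases before the start in Stk31, 49 before it in Taf7l and 29 before it in Ddx4. Sycp3 held it at 64 and at 43 bases before the start. The E2F-type motif began 136 bases before the start in Ddx4 and 147 before it in Sycp3. Dazl held neither motif in its window, and nor did Tex101 or Prdm1. The 1 window of Prdm1 (chr10:44458699-44458998, minus strand) lay inside the gene (chr10:44437174-44528558), so its outermost start was not searched.

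Nearly all of the windows were rich in CpG. The ratio of observed to expected CpG was at least 0.6 in 12 of the 13 windows, against 35.8% of all windows. Taf7l had the highest ratio of the group at 1.03, although its GC content was only 47%, and Ddx4 followed at 0.978 with 72% GC. Dazl stood at 0.795 with 68.7% GC, Mael at 0.78, Slc25a31 at 0.826, Prdm1 at 0.766, Tex101 at 0.7 and Sycp3 at 0.666. The exception was the most downstream of 3 annotated starts of Tdrd1, at 0.216, while its other starts gave 0.733 and 0.81.

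**Figure D1:**
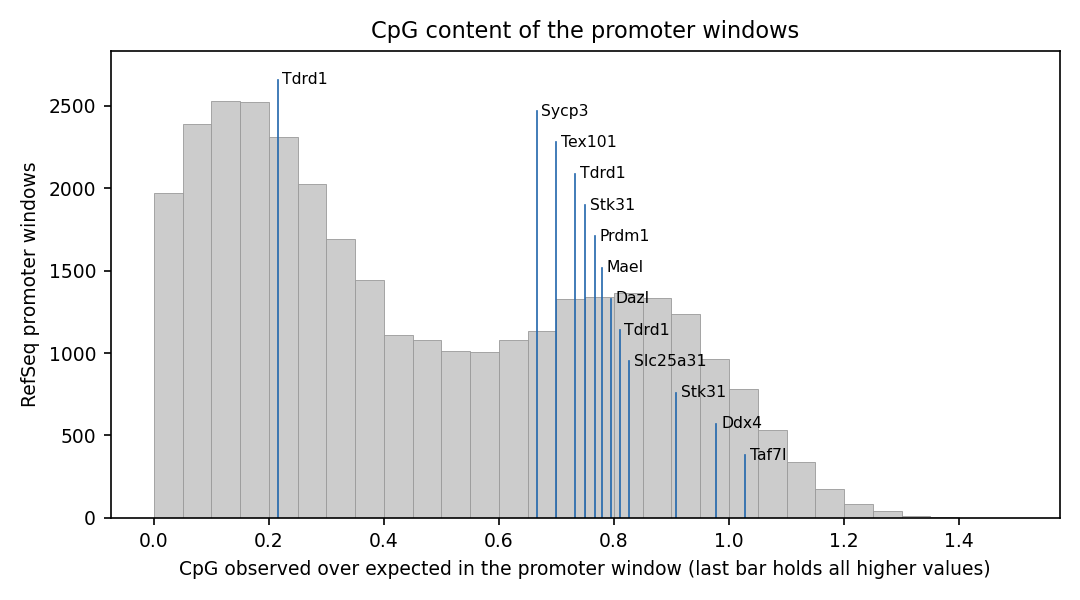
Number of RefSeq promoter windows (y axis) by their ratio of observed to expected CpG (x axis), grey bars, with a blue line for each window of the 10 germline genes. Of their 13 windows 12 lie at 0.6 or above, in the upper mode of the distribution, and 1 window of Tdrd1 lies at 0.216.

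On the arrays, the germline genes with a probe set lay close to or below the array medians. The values are linear intensities with an array median of 155 for KO and 152.5 for WT. A floor was set at 48.4 and 47.6, the 25th percentile after centring, and differences are given as log2 values, knockout minus wild type, after centring each array on its median. Detection calls were not used here, so the label of genes expressed in ES cells can be checked only against brightness. By its brightest probe set, a germline gene lay at or above the array median in the wild type in 5 of 8 cases (Dazl, Stk31, Taf7l, Ddx4 and Prdm1) and in the knockout in 3 (Ddx4, Sycp3 and Prdm1). Tex101 and Tdrd1 lay below the floor on both arrays, and for them the data do not bear the label out.

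Of the 8 genes, 6 passed the filter used for all genes, by which the brighter value must reach its array's median. Of these 6, 3 read at least 2-fold lower in the knockout (Stk31, Dazl and Taf7l), 0 read at least 2-fold higher and 3 were neither. Over all 7369 genes past the filter, 3.92% were at least 2-fold lower and 3.92% at least 2-fold higher. Among the 1778 genes within the range of mean brightness of these 6, the shares were 6.75% and 7.2%. All 3 genes that were lower had passed through their wild-type value alone, and among the 483 genes that did so 28.2% were at least 2-fold lower. With a floor at the 40th percentile only Stk31 stayed past 2-fold, and with both values required to reach the median 0 of the 3 entered. At a 3-fold threshold 1 germline gene (Stk31) was lower and 0 were higher, against 1.02% and 1.45% of all genes, and at 1.5-fold 3 were lower and 0 higher, against 11.5% and 10.5%. A gene admitted through its wild-type value alone had to be lower in the knockout, so the count says nothing further about germline genes as a group.

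**Figure D2:**
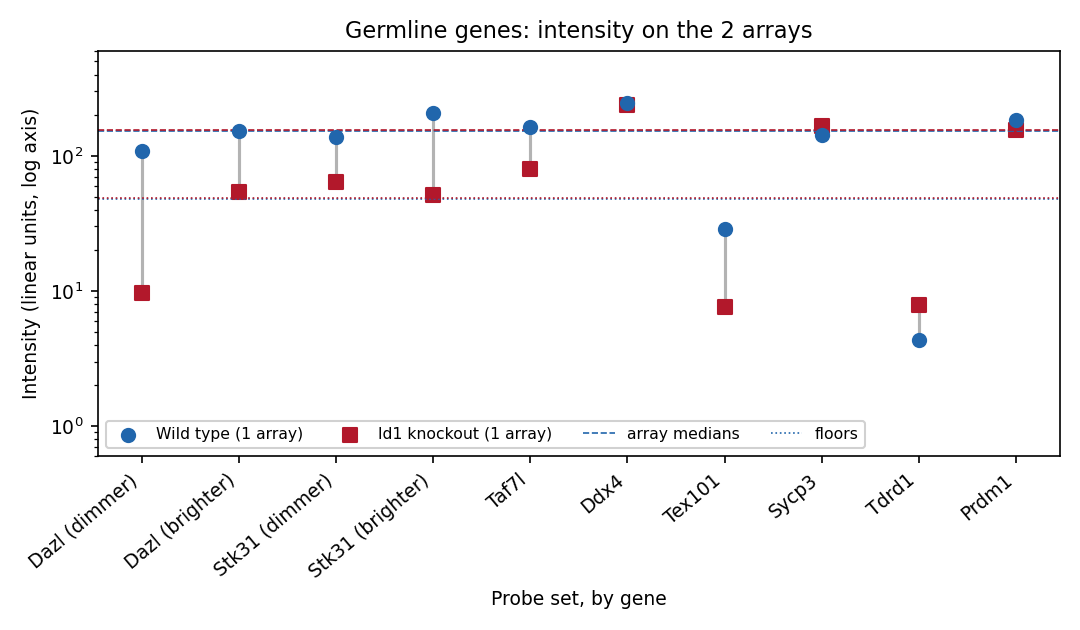
Intensity of each germline probe set (y axis, log scale, linear intensity units) on the wild-type array (blue circles) and the Id1 knockout array (red squares), with array medians dashed and floors dotted; there is 1 array per genotype and so no error bar. Both probe sets of Dazl and of Stk31 and that of Taf7l are dimmer in the knockout, Ddx4, Sycp3 and Prdm1 lie close to the medians on both arrays, and Tex101 and Tdrd1 lie below the floors.

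Dazl encodes an RNA-binding protein that promotes translation of germ cell transcripts and is needed for gametogenesis. Its brighter probe set, 1449502_at, read 53.9 in KO cells and 154 in WT cells, which is 2.90-fold lower (log2 difference -1.54). Its other probe set, 1419542_at, read 9.61 and 109. The knockout value of that probe set lay below the floor, so it is given as at least 2.29-fold lower. The wild-type value of the brighter probe set was just above the array median and the knockout value just above the floor, so both values lie in the dimmer part of the range.

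Stk31 encodes a testis-enriched protein with a Tudor domain and a kinase-like domain. Probe set 1454138_a_at read 51.1 in KO cells and 207 in WT cells, or 4.11-fold lower (log2 difference -2.04). The second probe set, 1425317_x_at, read 63.9 and 138, or 2.19-fold lower (-1.13), and did not reach the filter. By the naming scheme of these arrays, the suffix of the second marks probes that can bind other transcripts too. The 2 probe sets went the same way but differed from each other by more than the usual spread. Where a gene had several probe sets past the filter, their log2 differences had a median SD of 0.22 (2567 genes), and of 0.36 in the 414 such genes as bright as the germline genes.

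Taf7l encodes a germ cell paralogue of the TFIID subunit TAF7 and lies on the X chromosome. Its probe set read 79.9 in KO cells and 163 in WT cells, 2.07-fold lower (log2 difference -1.05). X-linked genes as a whole were lower on the knockout array, with 197 of 238 past the filter below 0, a median log2 difference of -0.55 and 21.4% of them at least 2-fold lower. Relative to the X-linked median, Taf7l differed by -0.49, which is short of 2-fold. With a loess fit of the difference on brightness it was -0.93, also short of 2-fold. The part of the X chromosome in the Taf7l value was not tested beyond this.

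Ddx4, the RNA helicase also known as VASA that marks germ cells, read 239 in KO cells and 245 in WT cells, a log2 difference of -0.05. Sycp3, the axial element protein of meiotic chromosomes, read 166 and 144 (0.18), and was the gene among the 6 with the higher value in the knockout. Prdm1, the transcriptional repressor BLIMP1 that specifies primordial germ cells and also acts in plasma cells, read 155 and 185 (-0.28). These 3 differences were smaller than 0.36, the median SD between probe sets at this brightness. Tex101, a surface glycoprotein of germ cells, read 7.59 and 28.9, and Tdrd1, a Tudor protein of the germ granule, read 7.81 and 4.34. Both are below the floor on both arrays, where values have no order, so neither has a fold.

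**Figure D3:**
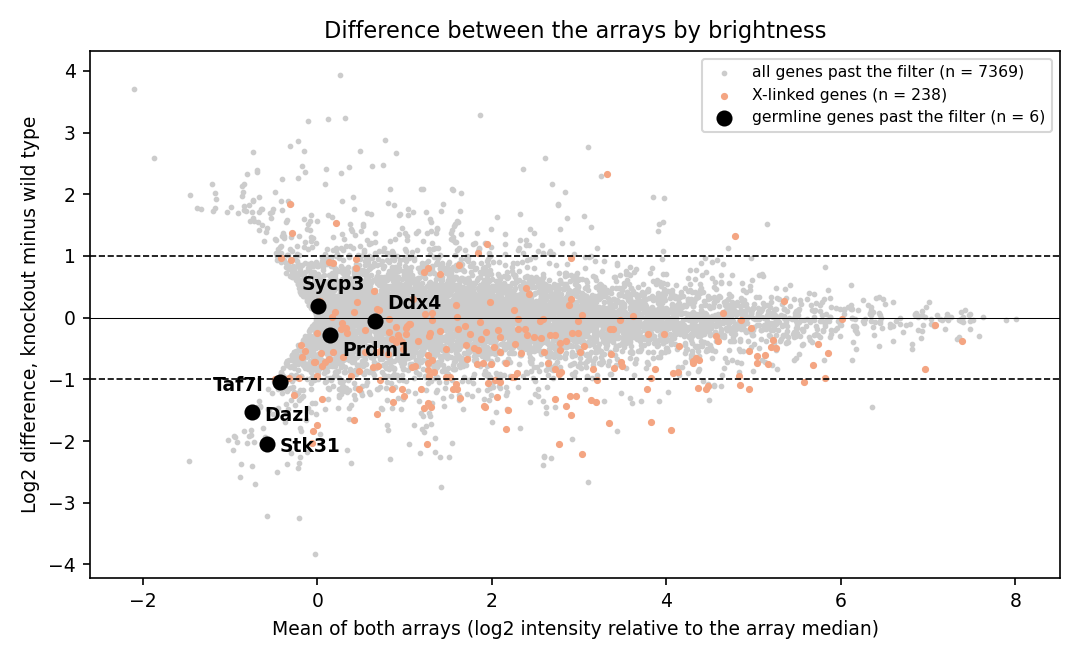
Log2 difference between the arrays (y axis, knockout minus wild type) against mean log2 intensity relative to the array medians (x axis) for the 7369 genes past the filter (grey), X-linked genes (orange, n = 238) and the 6 germline genes past it (black). Stk31, Dazl and Taf7l lie at -2.04, -1.54 and -1.05 at the dim end, where the filter leaves a gap around 0, and Ddx4, Sycp3 and Prdm1 lie between -0.28 and 0.18.

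The nearest genes past the filter on either side of Stk31 did not share its difference. They were Tra2a (1000 in KO cells and 1019 in WT cells, log2 difference -0.05) and Mpp6 (841 and 882, -0.09). Around Taf7l, the polyadenylation factor gene Cstf2 (761 and 756, -0.01) and the mitochondrial import gene Timm8a1 (3331 and 4021, -0.30) were short of 2-fold as well. Around Dazl the nearest genes past the filter lay further off. On one side, 1847 kb away with 28 annotated genes not past the filter in between, was the deaminase-family gene Apobec2 at 91.7 and 204 (-1.17). On the other, 1443 kb away with 11 in between, was the chromatin organiser gene Satb1 at 189 and 37.4. The wild-type value of Satb1 lay below the floor. Apobec2 had passed through its wild-type value alone and Satb1 through its knockout value alone. The 3 genes of the whole table whose pair of values lay nearest to that of Dazl, by Euclidean distance of the centred log2 values over these 2 arrays, were Cited4 (54.5 and 152, distance 0.02), Selenbp1 (58.0 and 155, 0.11) and Gria2 (57.4 and 142, 0.15).

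Most other germ cell genes with a probe set were below the filter. In 5 lists (piRNA pathway and germ granule, meiotic prophase, germline genes methylated in somatic cells, spermatogenesis, and oocyte), 73 genes outside the 10 had a probe set, and 22 of them (30.1%) passed the filter, against 59.5% of all genes. Of the 22, 6 were at least 2-fold lower, 1 was at least 2-fold higher and 15 were neither. Over all genes past the filter 3.92% were lower and 3.92% higher. The median log2 difference of the 22 was -0.28, against -0.01 over all genes past the filter. Of the 6 lower genes, 4 had passed through their wild-type value alone. Among the 483 genes in all that did so, 28.2% were at least 2-fold lower. Only 12 of the 22 had both values at or above the array medians, and of those 2 were lower and 10 were neither. These 2 were Tex19.1, which encodes a germ cell and ES cell protein and read 1188 in KO cells and 2872 in WT cells (2.46-fold lower), and Kit, the receptor of stem cell factor, at 300.1 and 746 (2.53-fold lower).

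Among the meiotic genes, of 20 with a probe set 9 passed the filter, of which 3 were lower, 0 higher and 6 neither, with a list median of -0.56. The cohesin gene Stag3 read 119 in KO cells and 280 in WT cells (2.38-fold lower), the intercellular bridge gene Tex14 130 and 261 (2.05-fold lower) and the recombination gene Msh5 84.5 and 169 (2.04-fold lower). All 3 had a knockout value below the array median. Of all genes that passed by the wild-type value alone, 28.2% were at least 2-fold lower. Syce2 (3408 and 2394), Psmc3ip (569 and 444) and Mnd1 (513 and 427), all with both values above the medians, had log2 differences of 0.49, 0.33 and 0.24. Without the genes that had only 1 value above the median, the meiotic list's median changed sign to 0.29. Stra8, which acts at the entry into meiosis, read 97.8 and 187 (-0.96), and the recombinase gene Dmc1 and the endonuclease gene Spo11 stayed below the filter.

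In the piRNA list, 5 of 9 genes passed, of which 0 were lower and 1 was higher. For this list and the next ones, the shares over all genes past the filter were 3.92% lower and 3.92% higher. The higher piRNA gene was the testis RNA helicase gene Ddx25, at 323 in KO cells and 152 in WT cells (2.09-fold higher). Its wild-type value fell just short of the array median, so it had passed through its knockout value alone. Piwil2, which encodes a PIWI protein of germ cells, read 153 and 128 and just missed the filter, and Asz1 read 149 and 188 (-0.37). Among 4 of 22 spermatogenesis genes that passed, Kit and the testis lactate dehydrogenase gene Ldhc (102 and 209, 2.09-fold lower) were lower. Ldhc had passed through its wild-type value alone, and 28.2% of all genes that did so were at least 2-fold lower. The protamine and transition protein genes of spermatids (Prm1, Prm2, Tnp1 and Tnp2) all stayed below the filter. Of the oocyte genes 2 of 11 passed and neither was past 2-fold. In the list of genes methylated in somatic cells 4 of 15 passed, of which Tex19.1 was lower and 3 were neither.

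Primordial germ cell regulators, by contrast, mostly passed the filter. Of 21 with a probe set 20 passed, of which 7 were at least 2-fold lower, 0 were higher and 13 were neither, with a median of -0.45. Over all genes past the filter 3.92% were lower and 3.92% higher. This list shares factors with the pluripotency network, and Klf4 (5.21-fold lower), Tcl1 (3.92-fold) and Esrrb (2.74-fold) among its lower members belong to both. The others were the X-linked homeobox genes Rhox6 (3.15-fold lower) and Rhox9 (2.59-fold), Kit and Tex19.1. Rhox6, at 117 in KO cells and 362 in WT cells, had passed through its wild-type value alone. Of all genes that did so, 28.2% were at least 2-fold lower. Relative to the X-linked median Rhox6 differed by -1.10 and Rhox9 by -0.82, which leaves 6 of 20 genes past 2-fold and a list median of -0.29. Tfap2c, which acts with PRDM1 in specification, read 381 in KO cells and 567 in WT cells (-0.60). Dppa3 (0.10), Ifitm3 (-0.07) and Dnd1 (-0.09) differed little.

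**Figure D4:**
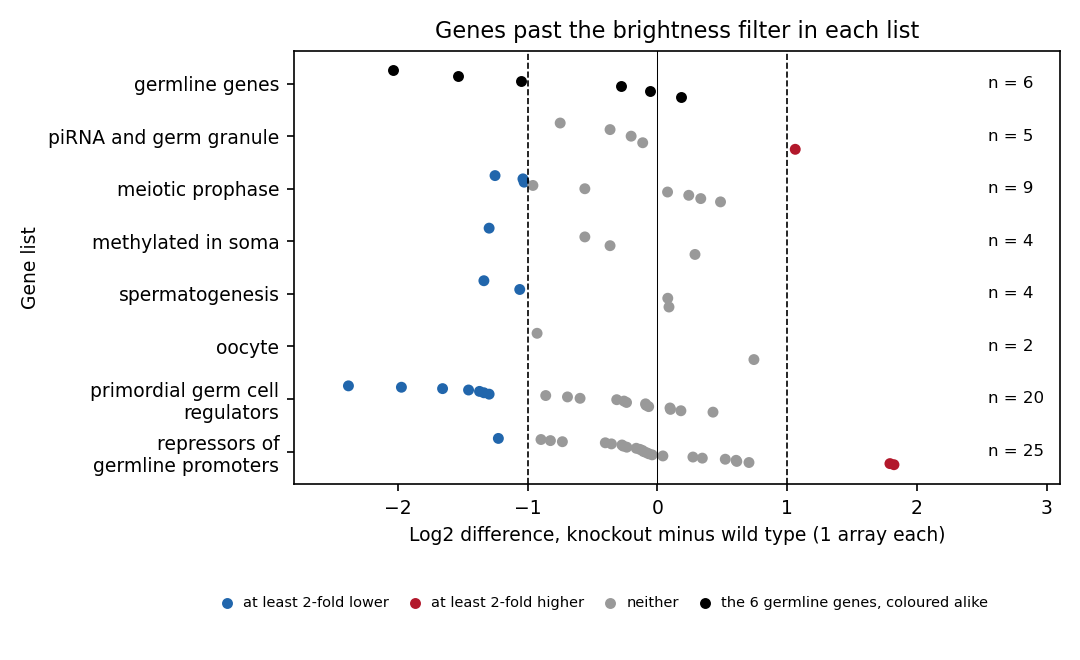
Log2 difference between the arrays (x axis, knockout minus wild type, 1 array each) for the genes past the brightness filter in each list (y axis), 1 point a gene, with dashed lines at 2-fold and the number of genes at the right. Primordial germ cell regulators hold 7 of 20 genes at or beyond 2-fold lower, and the 25 repressors of germline promoters hold 2 higher and 1 lower. Over all genes past the filter 3.92% are lower and 3.92% higher.

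The genes known to hold germline promoters down differed in both directions. Of 26 with a probe set 25 passed, with a list median of -0.11. Of the 25, 2 were higher, 1 was lower and 22 were neither, against 3.92% higher and 3.92% lower over all genes past the filter. The higher ones were the de novo DNA methyltransferase gene Dnmt3a, at 1969 in KO cells and 548 in WT cells (3.54-fold higher), and the Polycomb ubiquitin ligase gene Ring1, at 167 and 35.9. The wild-type Ring1 value lay below the floor, so it was at least 3.46-fold higher. Ring1 had passed the filter through its knockout value alone and so had to read higher. The 4 probe sets of Dnmt3a past the filter ranged from 0.10 to 2.01. The lower one was Morc1, an ATPase gene needed for transposon silencing in male germ cells, at 1133 and 2606 (2.34-fold lower).

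Of 10 genes for E2F6 and other subunits and partners of PRC1.6 past the filter, 9 were neither and 6 were above 0. Their log2 differences included 0.52 for E2f6, 0.27 for Max, -0.35 for Mga and -0.24 for Pcgf6, and ran from -0.90 for Wdr5 to 1.79 for Ring1. Of 6 DNA methylation genes 5 were neither, with Dnmt3b at 0.71 by its brightest probe set and 1.80, past 2-fold, by its other one, Dnmt1 at 0.04, Uhrf1 at -0.12 and the cofactor gene Dnmt3l at -0.82. All 8 genes for enzymes of histone methylation and their partners were below 0 by their brightest probe set and none reached 2-fold. Other passing probe sets reached 0.79 for Suz12 and 0.04 for Setdb1. The lowest value in this group was that of Ehmt2, which encodes the H3K9 methyltransferase G9a, at -0.73. Among the demethylation-linked genes, Tet1 read 431 in KO cells and 676 in WT cells (-0.67) and Nanog 2195 and 5423 (2.51-fold lower).

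Families were listed for some of the germline genes (TFIID, Tudor, adenine nucleotide translocase, DAZ with partners, and PRDM). In them, no gene past the filter reached 2-fold by its brightest probe set. The 4 passing probe sets of the Tudor gene Phf20 ranged from -1.06 to 0.29, and the 8 of the translocase gene Slc25a5 from -1.08 to -0.42. There were 9 general TFIID genes past it (median -0.08), including Taf7, the paralogue of Taf7l, at -0.39. The 9 Tudor genes had a median of -0.09, and the DAZ and PRDM lists had 2 genes each past the filter. Of the adenine nucleotide translocases, the somatic counterparts of Slc25a31, Slc25a4 had a log2 difference of 0.14 and the X-linked Slc25a5 of -0.83 (-0.27 relative to the X-linked median).

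Over all genes, the share that read lower was alike with and without the E-box. Of 777 genes past the filter with CACGTG in a promoter window, 3.86% were at least 2-fold lower and 2.32% at least 2-fold higher, against 3.87% and 4.05% of the 5278 without it. With TCCCGC the shares were 3.35% and 3.91% of 2507 genes, and without it 4.23% and 3.78% of 3548. In the 5 germ cell lists, CACGTG lay in 15 of 96 genes outside the 10 (15.6%), against 8.09% of all genes. By list it lay in 6 of 19 piRNA genes, 7 of 26 meiotic genes, 2 of 24 genes methylated in somatic cells, 1 of 21 spermatogenesis genes and 1 of 10 oocyte genes.

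The cultures carried the markers of their labelled cell type. All 10 ES cell markers passed the filter on the arrays, with 2 of them at least 2-fold lower in the knockout (Nanog and Esrrb), and their summed intensity was 58038 in KO cells and 71900 in WT cells. Over all genes past the filter 3.92% were at least 2-fold lower. Of 9 testis somatic markers 2 passed, with sums of 1146 and 747, and Amh, Cyp17a1, Cyp11a1 and Hsd3b1 lay below the floor on both arrays. Of 10 fibroblast markers 3 passed (sums 3167 and 5013), of 7 primitive endoderm markers 1 (694 and 665), of 5 two-cell-stage markers 2 (2040 and 2389) and of 6 blood and plasma cell markers 1 (926 and 938). The largest part of the fibroblast sums was Vim (2363 and 4251), and of the testis somatic sums Clu (706 and 366). For the two-cell-stage sums it was Eif1a (1810 and 1953), and for the blood and plasma cell sums Sdc1 (661 and 613). Such sums do not measure the share of a cell type. The part of these cell types in the germline values was not tested, and fewer cells of a type cannot be told apart from less RNA per cell in bulk RNA. Id1 itself read 461 in KO cells and 1045 in WT cells (2.30-fold lower). The part of the gene that was removed is not given, so the signal left in KO cells may come from the rest of it, and the labels are checked only partly.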

How the data were processed

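Total RNA of 2 mouse ES cell cultures was labelled with biotin, per the labels' protocols. The authors deposited 1 linear intensity per probe set and array, and the labels name neither the software nor the scaling. The mean without the outer 2% at each end was 500.2 on either array, so a common scale had been set. Of 22690 probe sets, 64 were controls, and 20380 of the others had 1 symbol in the platform annotation.

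Log2 intensities were centred on each array's median and floored at the pooled 25th percentile. A gene was read from its probe set with the highest mean, and was kept if its brighter value reached the array median. Differences of at least 2-fold were counted. There were no replicates, so no test was made, and the number of arrays limits the precision. The members, lists and motifs were chosen with earlier results of these data known. Named were all members, list genes past 2-fold (up to the 4 largest), the nearest measured neighbours and the 3 genes nearest to Dazl; other genes were named after their values were seen. CpG ratios and motifs were counted in RefSeq promoters. Python 3.11.15 and pandas 2.3.3 were used, and the steps were tested on simulated data. Alternatives covered centring, floor, filter, probe set choice and fold threshold.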

Additional observations from a re-analysis of the deposited data

How the results depend on the processing

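The 0 germline genes at least 2-fold higher stayed 0 in all 13 alternatives, and none of the 3 lower genes changed sign where it had a value. Among the list medians, 2 changed sign when both values had to reach the median: the meiotic one went from -0.56 to 0.29 and the spermatogenesis one from -0.49 to 0.08. The 3 genes that were lower remained the same 3 with quantile normalisation, without centring, with a floor at the 10th percentile, without a floor, without the brightness filter, at a 1.5-fold threshold and with the mean of passing probe sets. The count was 1 (Stk31) at a 3-fold threshold and 1 with a floor at the 40th percentile, where log2 differences were -1.05 for Stk31, -0.70 for Taf7l and -0.62 for Dazl. It was 0 when both values had to reach the median, because the filter then leaves all 3 genes out. It was 2 with loess centring and relative to the X-linked median (without Taf7l), and 2 with the mean of all probe sets (without Dazl, whose mean missed the filter). Over 61 reruns of single germline genes, 5 moved by more than 0.22, the median spread between probe sets. Counting 12 of 13 CpG-rich windows or 7 genes with CACGTG rests on the windows given; in the 250 bases before the start alone CACGTG lay in 7 genes, TCCCGC in 3, and 11 of 13 windows had a CpG ratio of at least 0.6. No paired analysis was possible because there was 1 array per genotype. Signal is a limit here, since all 8 measured germline genes lay near or below the array medians.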
